A study of Homo sapiens with 7 samples.

Results

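The progression of HCT116 cells from 1 h to 4 h of camptothecin (CPT) was followed on 3 of the 7 arrays of the series, those labelled 1, 2 and 4 h of CPT. The 4 h array was set against the 1 h array, and the 2 h array served as the step between. HCT116 is an established human colon carcinoma line. The cells received 10 µM CPT, or 0.1% DMSO, its solvent, for 4 or 20 h, and 2 further CPT arrays were taken at 15 and 20 h. A gene's value is the median of its probe sets, in log2 units, for genes with at least 3 probe sets whose mean over the 7 arrays lay above 2.95, and 16148 genes were measured. Each time and treatment is 1 array, and the labels do not say if the arrays stem from separate cultures. No difference was therefore tested, the number of arrays limits the precision, and a gene is called higher or lower only by size, past 2-fold (1 on the log2 scale).

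CPT traps topoisomerase I on DNA after it has cut a strand, so that the cut is not resealed and an elongating RNA polymerase is stopped on it. A long gene offers more places for such a block than a short gene. Immediate early genes are short genes that are switched on within minutes to hours of a stimulus or a stress, without new protein synthesis. They encode transcription factors such as FOS, JUN and EGR1, and regulators of signalling and of mRNA stability. The study was designed around the effect of topoisomerase I inhibition on splicing, and the ExonHit Human Splice Array reads each gene through many probe sets.

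The 3 arrays were alike in overall scale. Their median gene values were 4.36 at 1 h, 4.33 at 2 h and 4.36 at 4 h, and across all probe sets the 1 h and 4 h arrays correlated at r = 0.956. The values are normalized between arrays, so a change in total RNA per cell is not measured, and in RNA from a bulk culture a smaller number of cells of one kind and less RNA per cell cannot be told apart. EPCAM, an epithelial surface protein gene, read 7.89, 7.98 and 8.22 at 1, 2 and 4 h, and the epithelial keratin gene KRT8 read 7.48, 7.67 and 7.61. Among leukocyte markers PTPRC, the CD45 gene, read 3.58, 3.17 and 3.57, and LYZ, the lysozyme gene, 10.54, 10.90 and 10.93. From 1 to 4 h 8 of 9 of these markers were above 0, where 55.0% of all genes were, with a list median of 0.21. Brightness differs between probes and does not rank genes. No member of the epithelial (14 measured), endothelial (10), leukocyte (9) or fibroblast (10) marker lists passed 2-fold from 1 to 4 h. Of all genes 0.712% were higher and 0.743% lower, so lists this short can lack such a gene by themselves. The medians of the other marker lists were 0.06, 0.14 and 0.07. TOP1, which encodes topoisomerase I itself, stood at 7.78, 7.77 and 7.90 on the 3 CPT arrays and at 7.90 and 7.78 on the 4 h and 20 h DMSO arrays.

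From 1 to 4 h of CPT, 115 genes were higher past 2-fold (0.712% of genes) and 120 were lower (0.743%). Counts of this order were also found between arrays of the same treatment. The 20 h DMSO array had 176 genes higher (1.09%) and 97 lower (0.601%) than the 4 h DMSO array, and the 20 h CPT array had 85 higher (0.526%) and 109 lower (0.675%) than the 15 h array. Over all genes the differences between 4 h and 1 h had an SD of 0.34, against 0.39 for the DMSO pair. The count of higher genes thus lay between those of the same-treatment pairs, and the count of lower genes was above both. With the mean of the probe sets in place of the median, 40 genes were higher and 51 lower. Just inside the threshold lay MTNAP1 and TMEM128, with differences of 1.0003 and 1.0053, and just outside CLMP and MAGEE1, with 0.9987 and 0.9977. On the lower side TEX11 (−1.0001) and ZNF622 (−1.0047) lay inside, and ZNF644 (−0.9974) and SEC24B (−0.9928) outside.

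The 2 h array lay between the 1 h and 4 h arrays for 5414 genes (33.5%), 18.4% in the upward and 15.1% in the downward direction. Among the 115 higher genes 89 had a 2 h value between the other times, and among the 120 lower genes 104 did. A large difference between the end points makes an intermediate value likely by itself, so these counts describe the genes and are no finding about them. The higher genes had a median step of 0.47 from 1 to 2 h and of 0.82 from 2 to 4 h. The larger step was the second in 75 of these 115 genes, and in 8555 of all 16148 genes. The lower genes had median steps of −0.59 and −0.64. The first interval lasts 1 h and the second 2 h, so the size of a step is not a rate, and a larger second step does not show a faster change. Step by step, 79 genes were higher (0.489%) and 93 lower (0.576%) at 2 h than at 1 h, and 108 were higher (0.669%) and 92 lower (0.57%) at 4 h than at 2 h.

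**Figure D1:**
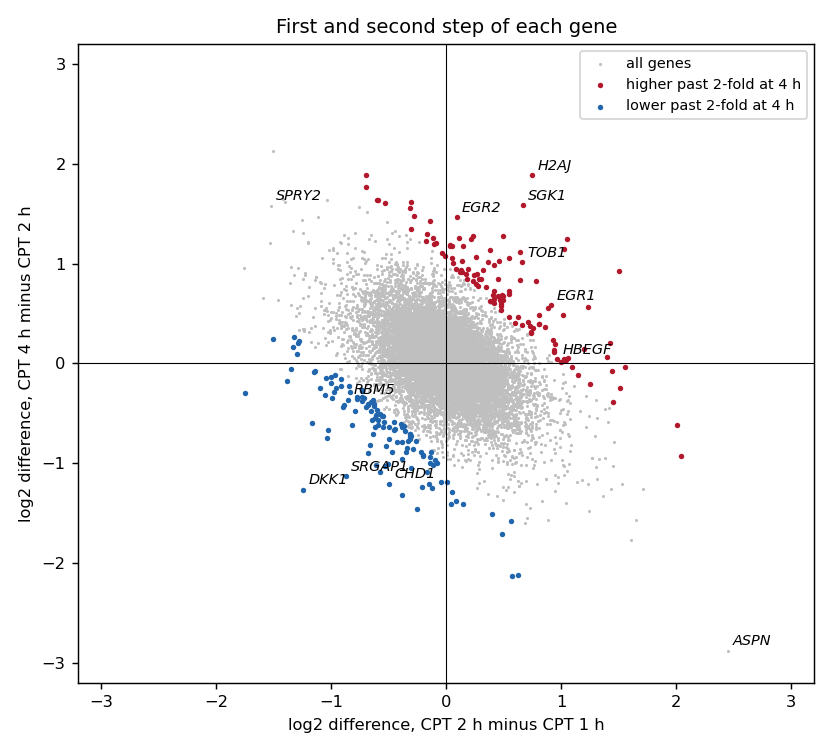
Log2 difference from 1 to 2 h (horizontal axis) and from 2 to 4 h (vertical axis) of CPT for each of 16148 genes, 1 point per gene, with the 115 genes higher past 2-fold from 1 to 4 h in red and the 120 lower in blue. SGK1, TOB1 and EGR1 lie to the upper right with both steps upward, DKK1 and SRGAP1 to the lower left with both downward, and SPRY2 and ASPN in the corners of genes that turned at 2 h.

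The immediate early genes were the group with the highest median. Of 38 measured members of that list other than the AP-1 and ATF genes, 10 were higher past 2-fold and 0 lower, against the 0.712% and 0.743% of all genes, and 30 lay above 0 with a median of 0.55 against 0.03 for all genes. Of 13 AP-1 and ATF transcription factor genes, 4 were higher and 0 lower, with a median of 0.32. Between the DMSO arrays (20 h minus 4 h) the medians of these lists were 0.07 and 0.21. With other ways to summarise or filter the probe sets they went down to 0.32 and 0.09 for the 1 to 4 h difference. Both lists were drawn up with earlier results of these data known. Of the 14 members past 2-fold, 11 had a RefSeq promoter (GRCh38.p14), and 4 of these (FOS, FOSB, CCN2 and SGK1) hold the letters TATAAA in the 250 bases before the start of the gene, on either strand. The same letters stood in the windows of 7.64% of the 12857 measured genes with a promoter, of 19.6% of the 92 such genes higher past 2-fold and of 7.92% of the 101 lower. The CArG box, the binding sequence of serum response factor, was found in 1 of the 11, and in 1.17% of all. The AP-1 letters TGANTCA were found in 0 of the 11 and in 4.70% of all. A site farther upstream than 250 bases, or one with other letters, would not be counted for any of these motifs. The windows of EGR1, FOS, FOSB and CCN2 are shown because they hold the CArG or TATA letters and their genes were higher together at 4 h. That of SGK1, with the letters on the opposite strand, is left out. The windows shown are written 5′ to 3′ on the strand of the gene, with CArG boxes (EGR1) and TATAAA (the other genes) in capitals.
EGR1, chr5:138465229-138465478, plus strand: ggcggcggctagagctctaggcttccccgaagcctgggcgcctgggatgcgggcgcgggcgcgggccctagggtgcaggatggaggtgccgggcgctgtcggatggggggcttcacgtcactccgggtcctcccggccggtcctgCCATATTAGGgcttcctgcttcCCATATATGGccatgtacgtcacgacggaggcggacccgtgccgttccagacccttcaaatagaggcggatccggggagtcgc
FOS, chr14:75278578-75278827, plus strand: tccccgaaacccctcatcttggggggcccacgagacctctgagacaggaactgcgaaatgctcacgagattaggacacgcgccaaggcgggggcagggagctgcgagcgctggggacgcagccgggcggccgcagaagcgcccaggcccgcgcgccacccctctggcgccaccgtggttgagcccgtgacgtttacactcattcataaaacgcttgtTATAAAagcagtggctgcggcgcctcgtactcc
FOSB, chr19:45467746-45467995, plus strand: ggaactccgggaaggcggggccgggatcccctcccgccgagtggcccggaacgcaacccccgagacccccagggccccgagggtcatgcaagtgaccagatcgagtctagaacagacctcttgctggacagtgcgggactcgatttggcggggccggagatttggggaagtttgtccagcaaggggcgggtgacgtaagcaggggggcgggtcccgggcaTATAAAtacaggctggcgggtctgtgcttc
CCN2, chr6:131951373-131951622, minus strand: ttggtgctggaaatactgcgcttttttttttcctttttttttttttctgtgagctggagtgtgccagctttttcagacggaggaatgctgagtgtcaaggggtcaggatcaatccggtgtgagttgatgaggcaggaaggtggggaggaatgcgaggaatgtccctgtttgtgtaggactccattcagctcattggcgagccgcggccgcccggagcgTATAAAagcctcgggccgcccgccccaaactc

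EGR1, a zinc finger transcription factor, read 5.34 at 1 h, 6.25 at 2 h and 6.84 at 4 h, a 2.82-fold difference that 94.4% of its 18 probe sets shared in direction. The DMSO arrays read 5.75 at 4 h and 6.87 at 20 h, so the 1 h array lay below both and the 4 h array between them, as did the 15 h and 20 h CPT arrays at 6.79 and 6.65. EGR2, a related factor, behaved otherwise. It read 3.02, 3.11 and 4.58 on the CPT arrays and 2.44 and 2.90 in DMSO, so that it lay above both DMSO arrays from 1 h on and almost all of its 2.94-fold difference came between 2 and 4 h. SGK1, a kinase gene known for its induction by serum and glucocorticoids, had the largest difference of either list, 4.75-fold. It read 3.28, 3.94 and 5.53 at 1, 2 and 4 h, with 3.11 and 3.12 in DMSO, and went on to 5.88 and 6.64 at 15 and 20 h. It is also a long gene, in the longest of 5 equal groups of genes by length, where 7 of the higher genes lie.

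FOS read 4.00, 4.47 and 5.10 at 1, 2 and 4 h, and 3.95 and 4.71 in DMSO. FOSB read 4.19, 4.45 and 5.52, with 4.36 and 4.79 in DMSO. Both encode AP-1 subunits and were above the DMSO arrays only at 4 h among the 3 early times. JUN, the gene of their partner, read 4.85 and 4.94 at 1 and 2 h and 5.89 at 4 h, against 4.48 and 4.77 in DMSO. ATF3, a stress-induced repressor of the same family, read 3.92, 4.81 and 5.36, against 4.46 and 3.80 in DMSO, and continued to 6.90 and 7.28 at 15 and 20 h. FOS and FOSB, in contrast, read 5.04 and 5.40 at 15 h, no higher than at 4 h. Among the remaining factors HES1, a repressor and Notch target, read 4.20, 4.74 and 5.47, and IER5, an inducible regulator of heat shock factor, read 5.28, 6.09 and 6.57.

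CCN2, which encodes a secreted matrix protein, lay at 4.26, 3.98 and 5.46 at 1, 2 and 4 h, above its DMSO values of 3.59 and 2.94 at every time. It is the only one of the immediate early genes past 2-fold whose 2 h value was below the 1 h value. CCN1, its relative, IER2 and IER3 were outside the naming rule and were picked after their values were seen. CCN1 read 5.11, 5.53 and 6.17, IER2 5.01, 5.49 and 6.03, and IER3 5.23, 5.27 and 6.46. IER3, an inhibitor of apoptosis in several settings, lay below both DMSO arrays (6.50 and 6.02) at 1 and 2 h and between them at 4 h. A member that went the other way was KLF5, an epithelial growth regulator, which read 5.97, 5.52 and 5.05. With probe sets kept only above the 0.75 quantile, CCN2 read a difference of −0.00, and with no filter on dim probe sets ZFP36L2, an mRNA decay factor on the list, read −0.09 in place of 1.02.

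**Figure D2:**
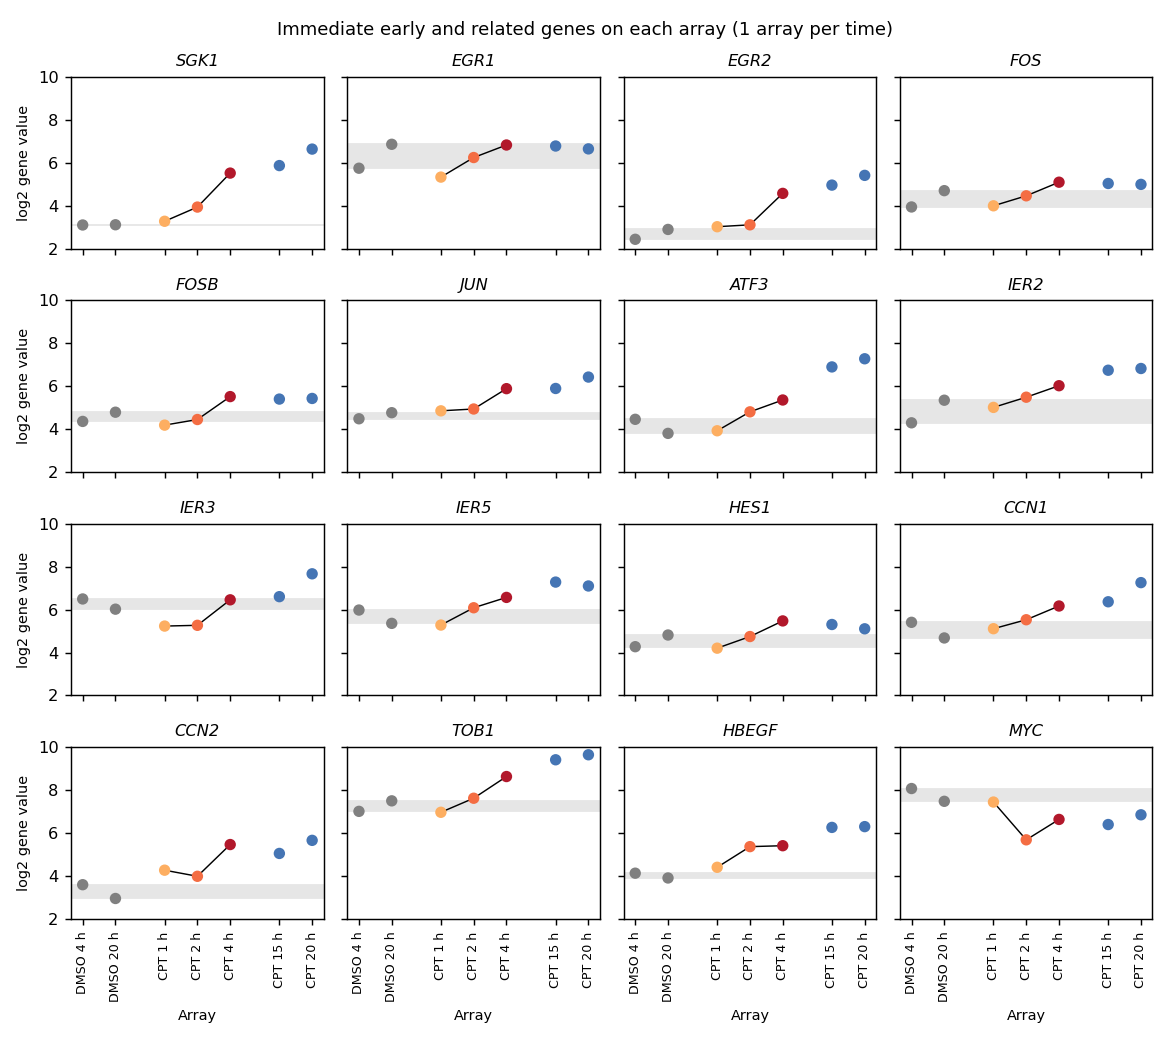
Log2 gene value (vertical axis) on each of the 7 arrays (horizontal axis) for 16 genes, mostly immediate early genes, 1 point per array, with the range of the DMSO arrays shaded and the 1, 2 and 4 h CPT arrays joined by a line. SGK1 climbs from 3.28 to 5.53, FOS and FOSB leave the shaded range at 4 h, EGR1 stays at or below its upper edge, and MYC dips to 5.68 at 2 h.

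MYC, the growth-promoting transcription factor gene, moved against most of that list. It read 7.44 at 1 h, 5.68 at 2 h and 6.63 at 4 h, against 8.07 and 7.48 in DMSO and 6.39 and 6.85 at 15 and 20 h. The 2 h array was therefore the lowest of the 7, and the 4 h value had regained part of the distance. Of its 37 probe sets 67.6% were lowest at 2 h among the 3 early times. The gap between the 2 h value and its nearer neighbour was −0.95, and it shrank to −0.38 with the mean of the probe sets.

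The genes with the largest stepwise increase, by a rule that asks for at least 5 probe sets, a 2 h value between the others and at least 75% of probe sets in the same direction, were SGK1, C6orf52, TOB1, ZNF699, EGR2, EGR1, ZNF425, ATF3, GCG, FOSB, C1orf141, IER5, HES1, ZNF501 and VGLL1. Besides the immediate early genes they include TOB1, an antiproliferative gene that also recruits the mRNA deadenylase. TOB1 read 6.96, 7.62 and 8.63, against 7.01 and 7.50 in DMSO, and 9.41 and 9.65 at 15 and 20 h. It was above both DMSO arrays from 2 h on. C6orf52, an uncharacterised gene, read 3.16, 3.65 and 4.92, and reached 6.14 and 7.18 at 15 and 20 h. ZNF425, a zinc finger gene, read 2.93, 3.94 and 4.42, with 3.86 and 3.79 in DMSO, so that its low 1 h value made up part of the 2.82-fold difference. GCG, the glucagon gene, had nearly all of its difference by 2 h, reading 3.80, 5.00 and 5.14. VGLL1, a cofactor of TEAD transcription factors, rests on 6 probe sets and read 2.504, 3.044 and 3.734.

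The largest difference among all genes was that of H2AJ, a replication-independent histone H2A gene, which was outside the rule because 70.0% of its 10 probe sets were higher at 4 h, and was picked after its values were seen. It read 4.51, 5.26 and 7.14 on the CPT arrays, 3.39 and 3.93 in DMSO, and 7.44 and 7.61 at 15 and 20 h. All 5 CPT arrays were thus above both DMSO arrays. Among the 15 named genes SGK1, TOB1, EGR1 and ZNF425 stayed past 2-fold under each of 9 other ways to summarise, filter or scale the probe sets, and EGR2 under the 8 that measured it. The lowest difference was 0.83 for C6orf52, 0.85 for FOSB, 0.96 for IER5, 0.54 for HES1, 0.36 for ATF3, 0.12 for VGLL1 and 0.05 for GCG. ZNF699, C1orf141 and ZNF501 changed sign in 1 setting each. FOS, JUN and H2AJ also stayed past 2-fold in all 9, which makes 7 of the 115 genes. Not all of the 9 could change a call. A minimum of 10 probe sets leaves a gene's value as it was, and centring shifts all genes by the same small amount.

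**Figure D3:**
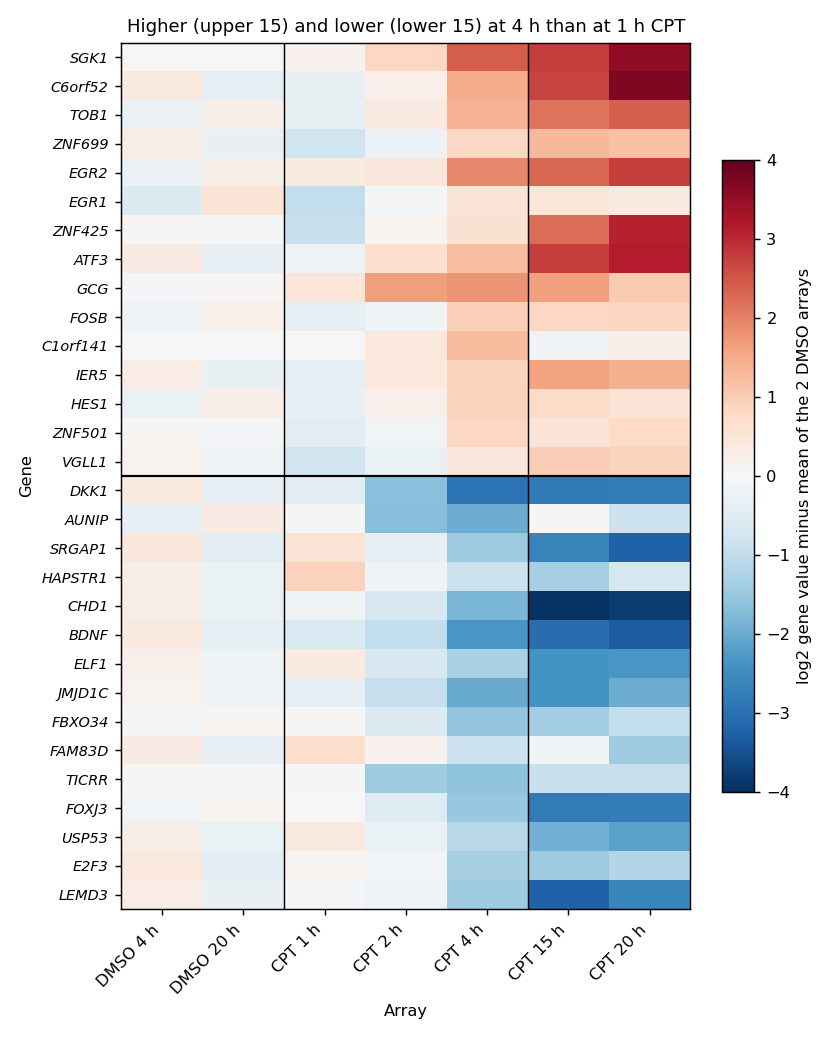
Log2 gene value minus the mean of the DMSO arrays (colour) on each of the 7 arrays (columns) for the 15 genes with the largest stepwise increase (upper rows) and the 15 with the largest stepwise decrease (lower rows) from 1 to 4 h of CPT. SGK1, C6orf52, EGR2 and ATF3 darken further in red at 15 and 20 h, CHD1, SRGAP1 and FOXJ3 darken further in blue, and AUNIP and C1orf141 return to pale colours at 15 h.

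Among the genes that were lower at 4 h, DKK1 led. DKK1 encodes a secreted inhibitor of Wnt signalling, and it read 7.78 at 1 h, 6.53 at 2 h and 5.27 at 4 h, a 5.71-fold difference with equal steps. In DMSO it read 8.62 and 7.82, and at 15 and 20 h 5.39 and 5.44, so the 4 h array lay near the late level. It is a short gene, in the shortest of the 5 length groups. SRGAP1, a GTPase-activating protein gene of Slit-Robo signalling, read 6.33, 5.46 and 4.33, with 6.24 and 5.34 in DMSO, and 3.13 and 2.56 at 15 and 20 h. Of its 99 probe sets 1.01% were higher at 4 h. BDNF, a neurotrophin gene, read 6.47, 6.09 and 4.77, below both DMSO values of 7.47 and 6.71 at each time.

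CHD1, a chromatin remodeller that travels with elongating RNA polymerase II, read 6.76, 6.26 and 5.05, against 7.14 and 6.64 in DMSO. It had 182 probe sets, of which 2.75% were higher at 4 h, and it went on to 2.93 and 3.10 at 15 and 20 h, the lowest late values relative to DMSO among the named genes. JMJD1C, a Jumonji domain gene, read 5.23, 4.66 and 3.57. HAPSTR1, a regulator of the stress response, was above both DMSO arrays at 1 h (7.38 against 6.73 and 6.21) and below both at 4 h (5.60), with 6.34 in between. ELF1, an ETS transcription factor gene, read 6.27, 5.23 and 4.57, with 6.078 and 5.664 in DMSO. It too was above both DMSO arrays at 1 h and below both at 4 h, but it was below both at 2 h already.

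Several of the other named genes act in the cell cycle. TICRR, which starts DNA replication origins, read 4.80, 3.41 and 3.24, so that its difference was nearly complete at 2 h. AUNIP, a partner of Aurora A kinase, did the same at 4.88, 3.13 and 2.83, and read 4.88 and 3.97 at 15 and 20 h. E2F3, a cell cycle transcription factor gene, read 5.01, 4.80 and 3.57, and FAM83D, a mitotic spindle gene, 6.17, 5.64 and 4.61, so that both had the larger step after 2 h. The remaining genes were FBXO34 (difference −1.63), FOXJ3 (−1.51), USP53 (−1.49) and LEMD3 (−1.38), an F-box, a forkhead, a ubiquitin protease family and an inner nuclear membrane protein gene. CHD1, DKK1 and HAPSTR1 stayed past 2-fold in all 9 other settings. The other 12 kept their sign and came as near to 0 as −0.99 (LEMD3) and −0.26 (BDNF).

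Of the 120 lower genes, 7 stayed past 2-fold in all 9 other settings, some of which, as said above, can hardly change a call. Besides CHD1, DKK1 and HAPSTR1 these were CTCF, MPHOSPH10, RBM5 and TIMM9, of which all but RBM5 were picked after their values were seen. CTCF, the insulator protein gene, read 7.29, 6.61 and 6.19 at 1, 2 and 4 h, with 7.31 and 7.25 in DMSO. MPHOSPH10, a gene of ribosomal RNA processing, read 8.09, 7.19 and 6.76 against 8.04 and 7.91. TIMM9, a mitochondrial import chaperone gene, read 5.03, 4.07 and 3.82 against 5.04 and 4.99. RBM5, a splicing regulator and tumour suppressor gene, read 5.97, 5.11 and 4.75 against 6.188 and 6.083, and 13.4% of its 186 probe sets were higher at 4 h. At 1 h MPHOSPH10 lay just above both DMSO arrays, CTCF and TIMM9 between them and RBM5 below both. All 4 had the larger part of the difference by 2 h. They were lower still at 15 h, at 4.75, 5.91, 3.30 and 4.38 in the order CTCF, MPHOSPH10, TIMM9 and RBM5. At 20 h CTCF, MPHOSPH10 and TIMM9 read 5.25, 6.43 and 3.32, also below their 4 h values, but RBM5 read 4.82, above its 4 h value.

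At 2 h most genes lay above or below both neighbours in time, and those with the widest gaps are named here. The genes whose 2 h value lay farthest above both neighbours, with at least 75% of probe sets on that side, were ASPN, LINGO1, BPGM, FPGT and CDS1. LINGO1, a leucine-rich repeat membrane protein gene, read 4.60, 6.25 and 4.67 at 1, 2 and 4 h, and BPGM, the enzyme gene of bisphosphoglycerate, 4.52, 5.96 and 4.69. ASPN, an extracellular matrix gene with 5 probe sets, read 2.73, 5.18 and 2.30, but it also differed between the DMSO arrays, at 5.58 and 3.33. The genes farthest below both were SPRY2, LINC00471, LSM11, MYOT and CGGBP1. SPRY2, a feedback inhibitor of receptor tyrosine kinase signalling, read 5.38, 3.85 and 5.43, with 4.05 and 5.04 in DMSO. LSM11, a component of the histone mRNA processing complex, read 3.72, 2.52 and 3.73. With no filter on dim probe sets the 2 h value of MYOT and of CGGBP1 was no longer below both neighbours, and the gap of the other 8 genes came as near to 0 as 0.03 (FPGT) and −0.04 (LSM11) in the other settings. Such a course rests on 1 array, and over all genes the 2 h value was above both neighbours for 27.8% and below both for 38.7%.

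Other lists differed by small amounts that most members shared. Mitochondrial complex I genes, which encode the first enzyme of the respiratory chain, had a median of 0.27, with 33 of 35 above 0 and none past 2-fold, and a median of 0.01 between the DMSO arrays. NDUFB4 read 6.47, 6.24 and 7.45 at 1, 2 and 4 h, and NDUFA12 6.53, 6.56 and 7.28. Their differences of 0.98 and 0.75 were 0.39 and 0.004 in the lowest of the other settings. Cytosolic ribosomal protein genes had a median of 0.26, with 62 of 67 above 0, where 55.0% of all genes were, and none past 2-fold. Their median difference between the DMSO arrays was −0.04. RPL17 was the member with the largest difference, at 8.40, 8.80 and 9.01, though its difference of 0.61 was 0.12 in the lowest of the other settings. Of the ribosomal protein genes 54 of 67 are in the shortest of the 5 length groups, and of the complex I genes 14 of 35.

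In the opposite direction stood genes of chromatin modification, with 4 of 53 lower past 2-fold, 0 higher, 40 below 0 and a median of −0.31. Of all genes 0.743% were lower and 0.712% higher past 2-fold, and 7271 of 16148 were below 0. The list's median between the DMSO arrays was −0.14, and with no filter on dim probe sets the 1 to 4 h median was −0.19. Besides CHD1 these were ARID4B, a subunit of the Sin3 deacetylase complex (6.10, 5.79 and 4.74), SETD5, a SET domain gene (5.99, 5.41 and 4.90), and EPC2, a subunit of the NuA4 acetyltransferase complex (5.35, 4.99 and 4.31), the last picked after its values were seen. ARID4B, SETD5 and EPC2 were below both DMSO arrays at 1 h already and were lower at 15 and 20 h than at 4 h. Of the 53 genes 29 are in the longest of the 5 length groups. The list of TGF-beta and YAP target genes also holds genes of the pathways themselves, such as YAP1, LATS1, SMAD3 and TGFBR1. It had the lowest median, −0.36, with 22 of 29 below 0. Past 2-fold 3 were lower and 2 higher, read against the same shares of all genes. Between the DMSO arrays the median of the list was −0.14, and with no filter it was −0.17 from 1 to 4 h. The median length of its genes was 50.5 kb, against 28.8 kb for all genes. AJUBA, a LIM domain scaffold gene, read 5.71, 5.24 and 4.35, and SKIL, an inhibitor of SMAD signalling, 5.74, 5.53 and 4.60, while CCN1 and CCN2, which the list shares with the immediate early genes, were the higher members. TGIF1, a SMAD corepressor gene picked after its values were seen, read 5.99, 5.21 and 4.88.

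**Figure D4:**
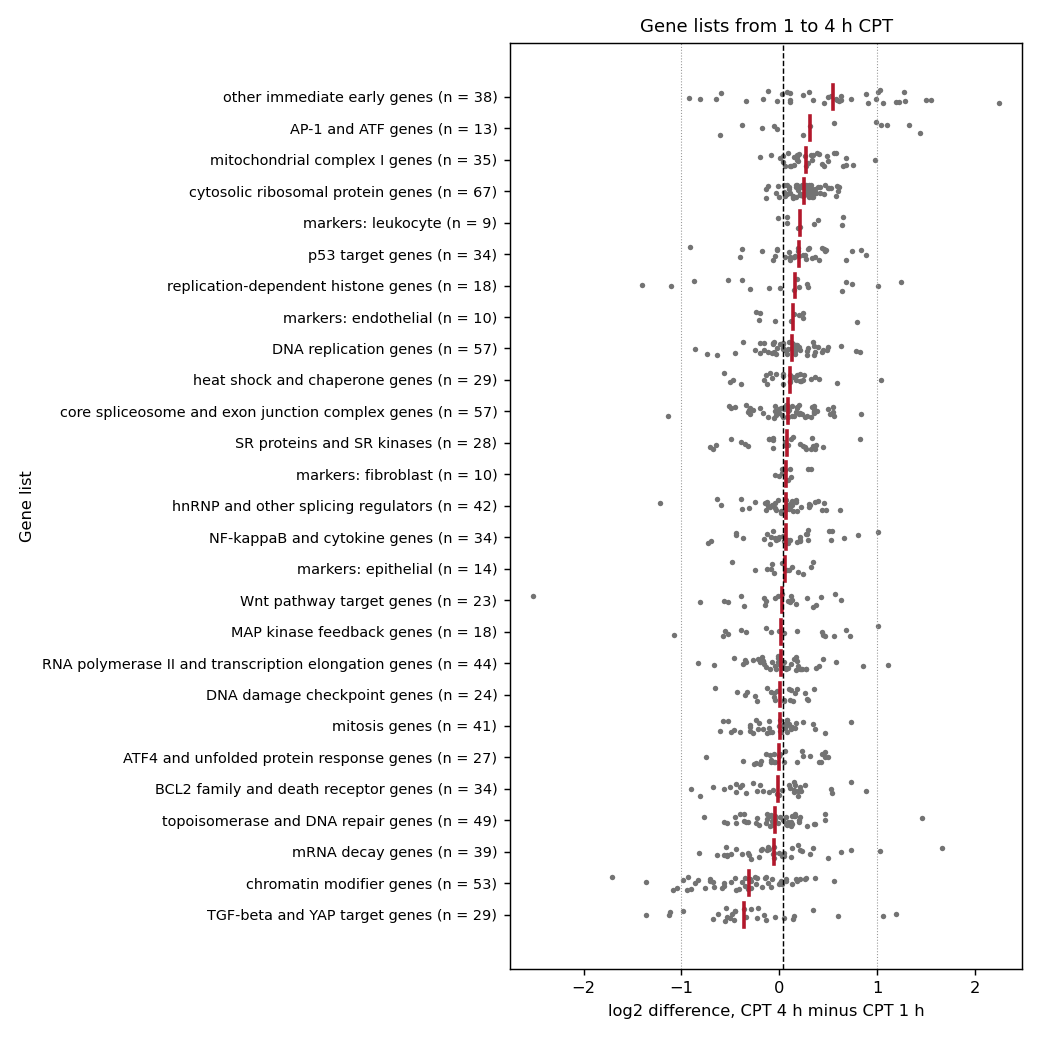
Log2 difference between the 4 h and 1 h CPT arrays (horizontal axis) for the measured members of 27 gene lists, 1 point per gene, with the list median as a red bar, the median of all genes as a dashed line and 2-fold as dotted lines. Immediate early genes have the highest median at 0.55, and complex I and ribosomal protein genes are shifted to 0.27 and 0.26 with little spread. The chromatin modifier list and the TGF-beta and YAP list, which mixes pathway and target genes, lie lowest at −0.31 and −0.36.

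The p53 target genes, which the DNA damage response switches on, had none of 34 past 2-fold by 4 h. Of all genes 0.712% were higher and 0.743% lower, so a list of this size can lack such a gene by itself. Of the p53 target genes 26 lay above 0, where 55.0% of all genes did, with a median of 0.20 against 0.03. Their median between the DMSO arrays (20 h minus 4 h) was 0.21. CDKN1A, the p21 cell cycle inhibitor gene, read 5.45, 5.27 and 5.69, within or near its DMSO values of 5.27 and 5.67, and 7.08 and 7.33 at 15 and 20 h. MDM2, the p53 ubiquitin ligase gene, read 7.64, 8.05 and 7.94, above both DMSO arrays (7.39 and 7.59) at each early time. GADD45A, a stress sensor gene, read 4.88, 5.29 and 5.72 and stood at 7.999 and 8.419 later, and the proapoptotic gene BBC3 (PUMA) read 5.17, 5.47 and 6.05. PPM1D, a phosphatase gene that restrains p53, read 5.86, 5.87 and 4.95, a difference of −0.92 that became 0.02 with no filter on dim probe sets. The difference of MDM2 also changed sign in 3 settings, to −0.24 at the lowest.

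Of 66 listed replication-dependent histone genes 18 were measured, and their median was low by 1 h. It was −1.44 relative to the DMSO mean at 1 h and −1.74 at 4 h. From 1 to 4 h 0.743% of all genes were lower and 0.712% higher past 2-fold, and 55.0% were above 0. Of the 18 histone genes 2 were lower and 2 higher past 2-fold, with 11 above 0 and 7 below. The median of these differences was 0.16, and −0.09 at its lowest among the other settings. It went the other way than the medians relative to DMSO, so no direction is drawn for the list. H2BC18 read 7.65, 7.32 and 6.54, against 10.73 and 10.87 in DMSO, and H2BC4 8.87, 7.52 and 7.47 on 3 probe sets. H2BC12 (3 probe sets) and H4C15 (4, picked after its values were seen) were higher, at 3.08, 2.77 and 4.33 and at 6.07, 6.62 and 7.09. Histone genes are nearly identical copies, so a probe set may read several of them, and with no filter on dim probe sets the differences of H2BC18, H2BC4 and H2BC12 changed sign.

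Genes of transcription and RNA splicing passed 2-fold about as often as all genes, of which 0.712% were higher and 0.743% lower. None of 28 SR protein and SR kinase genes was (median 0.08), and RBM5 was the only one of 42 hnRNP and other regulators (median 0.07). In the core spliceosome and exon junction complex 1 of 57 was lower, PRPF38B at 6.04, 5.92 and 4.90 on 6 probe sets, and it changed sign with no filter on dim probe sets. HEXIM1, the inhibitor of the elongation kinase P-TEFb, was the 1 of 44 RNA polymerase II and elongation genes past 2-fold. It read 5.97, 6.31 and 7.08, with 6.05 and 6.26 in DMSO, and reached 7.83 and 8.19 at 15 and 20 h. CDK13, an elongation kinase gene, read 5.04, 4.99 and 4.20, and its difference of −0.83 became −0.07 with no filter on dim probe sets.

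Of 49 topoisomerase and DNA repair genes 1 was higher, LIG4, the ligase of non-homologous end joining, at 3.41, 3.62 and 4.86 on 12 probe sets, though at 0.35 in the lowest of the other settings. TDP1, the gene of the phosphodiesterase that frees DNA ends from topoisomerase I, read 4.93, 4.70 and 4.47, and its difference of −0.46 became 0.02 with no filter on dim probe sets. No gene passed 2-fold among 24 DNA damage checkpoint genes (median 0.01), 41 mitosis genes (0.01), 57 DNA replication genes (0.13), 34 BCL2 family and death receptor genes (−0.02) or 27 ATF4 and unfolded protein response genes (−0.01). Of all genes 0.712% were higher and 0.743% lower, so counts this small in lists of this size are no finding about them. CASP2, a caspase gene, read 5.69, 5.32 and 5.49, and WEE1, a checkpoint kinase gene, 6.47, 6.53 and 5.81.

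The remaining lists each had a single outlying member or a pair. Of all genes 0.712% were higher and 0.743% lower past 2-fold, and 1 such member in a list of this size says little about the list. NFKBIZ, a nuclear regulator of NF-kappaB, was the 1 of 34 NF-kappaB and cytokine genes past 2-fold, reading 4.25, 5.24 and 5.26, with its whole difference in place at 2 h. HBEGF, a ligand of the EGF receptor, had the same course at 4.399, 5.362 and 5.405, and ERRFI1, an inhibitor of that receptor, went the other way at 8.23, 7.68 and 7.15, and these were the pair past 2-fold among 18 MAP kinase feedback genes. HSPE1, the mitochondrial chaperonin 10 gene, was the 1 of 29 heat shock and chaperone genes, at 8.07, 8.81 and 9.11, but below its DMSO values of 8.89 and 8.53 at 1 h. DKK1 was the 1 of 23 Wnt target genes, and TOB1 and ZFP36L2 were the 2 of 39 mRNA decay genes.

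The genes higher at 4 h were shorter than most. Their median length was 9.59 kb, against 28.8 kb for all genes and 36.8 kb for the 120 lower genes, by the RefSeq gene table of GRCh38.p14. All genes with a length were split into 5 equal groups. Of 113 higher genes 52 fell in the shortest group and 7 in the longest, which is 1.63% and 0.219% of the genes in those groups. The lower genes were spread over all groups, with 24 in the shortest and 27 in the longest. Over all genes the median difference was 0.10 in the shortest group, 0.08, 0.04 and −0.00 in the next, and −0.04 in the longest, and the rank correlation with length was −0.19 over 15990 genes, which share their arrays and are not independent. Among genes of low, middle and high level it was −0.12, −0.20 and −0.25. Between the DMSO arrays the medians were 0.14, 0.11, 0.06, 0.04 and 0.08 from the shortest to the longest group, and between the 20 h and 15 h CPT arrays from −0.01 to −0.08, so a part of this slope is found without the step from 1 to 4 h. Short genes also have fewer probe sets, with a median of 22 in the shortest and 63 in the longest group, and the higher genes had a median of 8 against 43 for all genes. The part of probe set number in the difference was not tested, beyond the 54 genes that were higher past 2-fold when at least 10 probe sets were asked for.

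**Figure D5:**
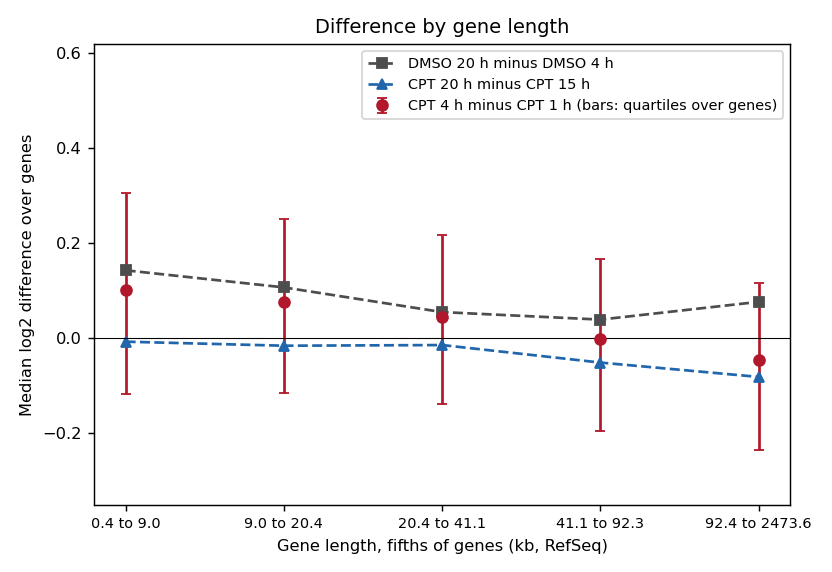
Median log2 difference over genes (vertical axis) in 5 equal groups of genes by length (horizontal axis, kb) between the 4 h and 1 h CPT arrays, with bars from the lower to the upper quartile over genes, and between 2 pairs of arrays of the same treatment. The 4 h against 1 h medians go from 0.10 to −0.04 with wide bars, and the DMSO pair goes from 0.14 to 0.04 and then 0.08.

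The DMSO arrays and the 15 h and 20 h CPT arrays place these genes before and after the window. The differences between 4 h and 1 h do not use these arrays, but the filter on probe sets does. It takes the mean over all arrays, so a probe set can be kept for its brightness at 15 and 20 h or in DMSO. The late counts are therefore not independent of the choice of probe sets. On both late CPT arrays 92 of the 115 higher genes lay above both DMSO arrays, as 54.2% of all genes did, with a median of 0.91 against 0.34 over all genes. Of the 120 lower genes 72 lay below both DMSO arrays at 15 and 20 h, as 24.4% of all genes did, with a median of −0.92. The window itself began off the DMSO level for many of the higher genes. At 1 h 69 of the 115 lay below both DMSO arrays, against 26.0% of all genes, and at 4 h 100 lay above both, against 38.9%. Of the 120 lower genes 51 lay above both DMSO arrays at 1 h, against 31.9% of all genes, and 108 below both at 4 h, against 26.3%. The 1 h and 4 h arrays chose these genes, so the counts at those times are a description only. EGR1, IER3 and HSPE1 are examples of genes that were below DMSO at 1 h and whose 4 h value lay within or just above the DMSO range, whereas SGK1, EGR2, JUN and CCN2 started at or above DMSO.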

How the data were processed

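Total RNA of 7 HCT116 samples was amplified and biotin-labelled for the splice array, per the labels' protocols. The values the authors deposited, on a log2 scale that was read from their range, are normalized between arrays and give 1 number for each of 2108940 probe sets. The submitters' processing notes name RMA, Partek 6.08 and R 2.11.1 without a role. Background correction, summarisation and genome build were not given in the sources used here.

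Probe sets were grouped by the gene number in their names. Of 20649 such numbers 17646 were named by the platform annotation, and the other 3003 were not analysed here. In the RefSeq gene table (GRCh38.p14) 17412 were found and 17280 carried the same gene. Left out were 132 whose symbol disagreed and 24 whose symbol belonged to another number. Probe sets with a mean over 7 arrays above the median of all (2.95) were kept, and the median per gene was taken for genes with at least 3. Differences were computed in Python 3.11.15 with pandas 2.3.3, numpy 2.4.6 and matplotlib 3.10.9, and the counting was tested on simulated data.

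Groups came from the labels, with 1 array each, so no test, SD between replicates or p-value is given. The gene lists, the naming rule and the comparison were chosen with earlier results of these data known. Named were the 15 genes highest and the 15 lowest by difference (at least 5 probe sets, 2 h between, at least 75% of probe sets in that direction), the 5 highest and 5 lowest turning genes at 2 h, up to 3 members per list with the largest difference, and TOP1, TDP1, CDKN1A, MDM2, MYC, FOS, JUN, EGR1, ATF3 and CASP2. KRT8, PTPRC and KLF5 were added after their values were seen. Promoters were searched on both strands for 3 motifs. Alternatives tried were the mean of probe sets, no filter, a filter at the 0.75 quantile or on other arrays, quantile re-normalization, centring, at least 10 probe sets, other fold thresholds and, chosen after seeing the data, the median of probe set differences.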

Additional observations from a re-analysis of the deposited data

How the results depend on the processing

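The counts of genes past 2-fold depend on how probe sets are combined. In place of 115 genes higher and 120 lower at 4 h, the mean of the probe sets gave 40 and 51, and the median of the probe set differences, chosen after seeing the data, gave 39 and 54. No filter on dim probe sets gave 82 higher and 53 lower genes, and a minimum of 10 probe sets gave 54 higher and 81 lower. A threshold of 1.5-fold gave 640 and 709, and a threshold of 3-fold gave 12 and 11. Of the genes counted here, 33 of 115 and 41 of 120 remained past 2-fold with the mean, 24 and 20 with no filter, and 30 and 41 with probe set differences, while 108 and 115 did after quantile re-normalization. With all 9 alternatives to the gene values, 83 of the 115 and 92 of the 120 kept their direction wherever they were measured. A minimum of 10 probe sets cannot change a direction, and centring hardly can, so they add little to these counts. No scaling moved the median of all genes by 0.1. The cause of these moves was not tested, except that fewer genes were tested with a higher minimum of probe sets.

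Among genes past 2-fold that the text names, differences that changed sign with no filter were those of C1orf141 (−0.018), H2BC12 (−0.023), H2BC18 (0.92), H2BC4 (0.10), PRPF38B (0.70), ZFP36L2 (−0.092) and ZNF501 (−0.091), and the 2 h troughs of MYOT (0.15) and CGGBP1 (0.15). CCN2 did so at the 0.75 quantile (−0.0017) and ZNF699 with probe sets kept by the 1, 2 and 4 h CPT arrays (−0.061). Of smaller differences, those of PPM1D (0.02), TDP1 (0.0245) and MDM2 (−0.044) changed sign with no filter. With the mean of the probe sets the list median of AP-1 and ATF genes went from 0.32 to 0.09. With no filter the median went from 0.55 to 0.32 for immediate early genes and from −0.36 to −0.17 for the TGF-beta and YAP list. With probe set differences it went from 0.26 to 0.16 for ribosomal protein genes and from 0.20 to 0.12 for p53 target genes. All of these kept their direction. The histone median read 0.16 and went to −0.09. The share of genes with 2 h between ran from 33.4% to 36.1%. No paired analysis was possible because each time has 1 array, and for the same reason no replicate could be left out.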

Other observations

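Zinc finger genes with a ZNF symbol, a family of mostly transcriptional repressors, were looked at after their values were seen, because ZNF699, ZNF425 and ZNF501 were among the 15 largest stepwise increases. Of 443 measured, 3 were higher past 2-fold at 4 h than at 1 h and 10 lower, which is 0.677% and 2.26%, against 0.712% and 0.743% of all genes. Their median was −0.06 against 0.03 for all genes, and 198 (44.7%) lay above 0, against 55.0%. At 15 and 20 h its median relative to DMSO was 0.41, against 0.34 for all genes.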
